A study of Mus musculus with 6 samples.

Results

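The 53 genes described here encode the machinery by which a secretory cell brings proteins into the endoplasmic reticulum (ER), folds them, ships them to the Golgi and monitors the load. They were chosen by name from a table of 55487 gene identifiers, and cover 14 ER chaperones and folding enzymes, 8 sensors and transcription factors of the unfolded protein response (UPR), 16 genes of protein targeting, translocation and signal peptide removal, 11 genes of the COPII coat and KDEL retrieval, and 4 genes of ER-associated degradation. The names matched 54 identifiers, since a second *Ddit3* identifier was listed at 0 TPM (transcript abundance scaled to transcript length and to the library total) in all 6 libraries. All 53 genes passed the filter of a mean of at least 1 TPM, as did 13719 genes in all.

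The table was made from RNA of the dental epithelium of mandibular first molars at postnatal day 2.5. It held 3 control libraries from Wnt10a fl/fl mice and 3 libraries from K14-Cre;Wnt10a fl/fl mice (conditional knockout, cKO), in which both *Wnt10a* alleles are floxed and Cre is driven by the keratin 14 promoter in epithelial cells. Both groups carried the floxed alleles and the control carried no Cre, so loss of *Wnt10a* and presence of the transgene cannot be told apart. Each library was a pool of several molars, and the labels give neither the animals of origin nor their sex. *Wnt10a* itself had 56.0, 51.2 and 57.9 TPM in controls and 22.7, 21.8 and 32.2 TPM in cKO libraries, so its transcript was lower but still measured. Libraries are numbered here by the replicate given in their sample titles, which is not always the number in the deposited column names. The deposited columns numbered 3 hold replicate 2 of each group, and replicate 3 is in columns with a higher number. The libraries numbered 3 here, of both groups, stood apart by the GC content of the genes that were high in them. A low level of amelogenin transcript set cKO replicate 2 apart, with values further on.

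Ameloblasts, the enamel-forming cells of the dental epithelium, secrete amelogenin and other enamel matrix proteins in bulk. Proteins with a signal peptide are guided to the ER membrane by the signal recognition particle, enter through the Sec61 channel, lose the signal peptide, are folded by chaperones and leave in COPII-coated vesicles. When unfolded protein accumulates, 3 ER membrane sensors respond, namely IRE1 (*Ern1*), which splices the *Xbp1* transcript, PERK (*Eif2ak3*), which slows translation and favours ATF4 synthesis, and ATF6, which is cut to release a transcription factor. The values below are total transcript levels of a gene, and they tell neither spliced from unspliced *Xbp1* nor active from inactive sensor.

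XBP1 and ATF6 act on short elements in the promoters of their target genes, and ATF4 acts with C/EBP proteins on another. The promoters of the genes described here were searched for 4 elements on both strands. The promoters came from RefSeq (build GRCm38.p6) and ran from 250 bases before to 50 bases after each start, with 46 promoters matching 44 of the 53 genes. *Manf* was among the genes with no promoter in this set. The ER stress response element (ERSE, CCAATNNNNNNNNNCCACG) was in the promoters of 7 genes, or 15.2% of their promoters, against 0.119% of all 32851 promoters. The related ERSE-II (ATTGG, any base, then CCACG) was in 2 genes, or 4.35% of the promoters against 0.0365% of all promoters. The UPR element (UPRE, TGACGTGG) was in 3 genes, or 6.52% of the promoters against 0.676% of all promoters. None of the promoters held the C/EBP-ATF response element (CARE, TGATGNAAT), which was in 0.965% of all promoters. No promoter held 2 different elements of this list, and *Hsp90b1* had the ERSE at 2 places.

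The sequences with an ERSE or ERSE-II are printed because these elements are known binding sites of UPR transcription factors, with the element in capitals, and the strand of the gene, from which each is read 5′ to 3′, in the line. On the opposite strand the ERSE reads CGTGG at its left end.
*Hspa5*, chr2:34772015-34772053, plus strand, element 65 bases before the start: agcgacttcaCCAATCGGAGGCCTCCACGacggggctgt
*Calr*, chr8:84847065-84847103, minus strand, 162 bases before: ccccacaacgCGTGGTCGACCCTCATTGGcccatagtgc
*Hsp90b1*, chr10:86705628-86705666, minus strand, 212 bases before: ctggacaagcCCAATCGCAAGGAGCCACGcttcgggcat
*Hsp90b1*, chr10:86705523-86705561, minus strand, 107 bases before: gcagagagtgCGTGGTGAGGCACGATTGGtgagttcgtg
*Canx*, chr11:50325790-50325828, minus strand, 145 bases before: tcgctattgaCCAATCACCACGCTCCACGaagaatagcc
*Pdia6*, chr12:17266481-17266519, plus strand, 98 bases before: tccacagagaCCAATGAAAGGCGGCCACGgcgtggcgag
*Dnajc3*, chr14:118937817-118937855, plus strand, 105 bases before: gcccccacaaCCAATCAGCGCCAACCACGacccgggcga
*Syvn1*, chr19:6046522-6046560, plus strand, 44 bases before: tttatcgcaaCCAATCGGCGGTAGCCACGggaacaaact
*Herpud1* (ERSE-II), chr8:94386368-94386396, plus strand, 52 bases before: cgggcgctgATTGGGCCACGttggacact
*Dnajb11* (ERSE-II), chr16:22857843-22857871, plus strand, 8 bases after: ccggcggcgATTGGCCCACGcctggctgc

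The UPRE sequences are shown because all 3 belonged to the vesicle coat and retrieval genes, in the same format.
*Sec24d*, chr3:123267460-123267487, plus strand, 26 bases before: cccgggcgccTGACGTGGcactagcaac
*Sec23a*, chr12:59011994-59012021, minus strand, 7 bases after: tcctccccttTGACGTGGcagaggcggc
*Kdelr3*, chr15:79516368-79516395, plus strand, 30 bases before: ggccgccccgCCACGTCAccgcgcggcc

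Many of the secretory pathway genes were highly expressed in the dissected dental epithelium of both genotypes, and their summed level overlapped between the genotypes. The UPR genes and those of ER-associated degradation were lower in level, with median control means of 24.9 and 17.5 TPM against 101 TPM for all 53. The 53 genes summed to 8890, 8038 and 7960 TPM in controls and 8479, 8728 and 9160 TPM in cKO libraries, which was 0.804% to 0.926% of all TPM. The mean of the cKO was 106% of that of the control. Control means ran from 5.73 TPM for *Sec24a* to 702 TPM for *P4hb*, and 27 of the 53 genes were among the 1000 genes with the highest control mean.

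**Figure D1:**
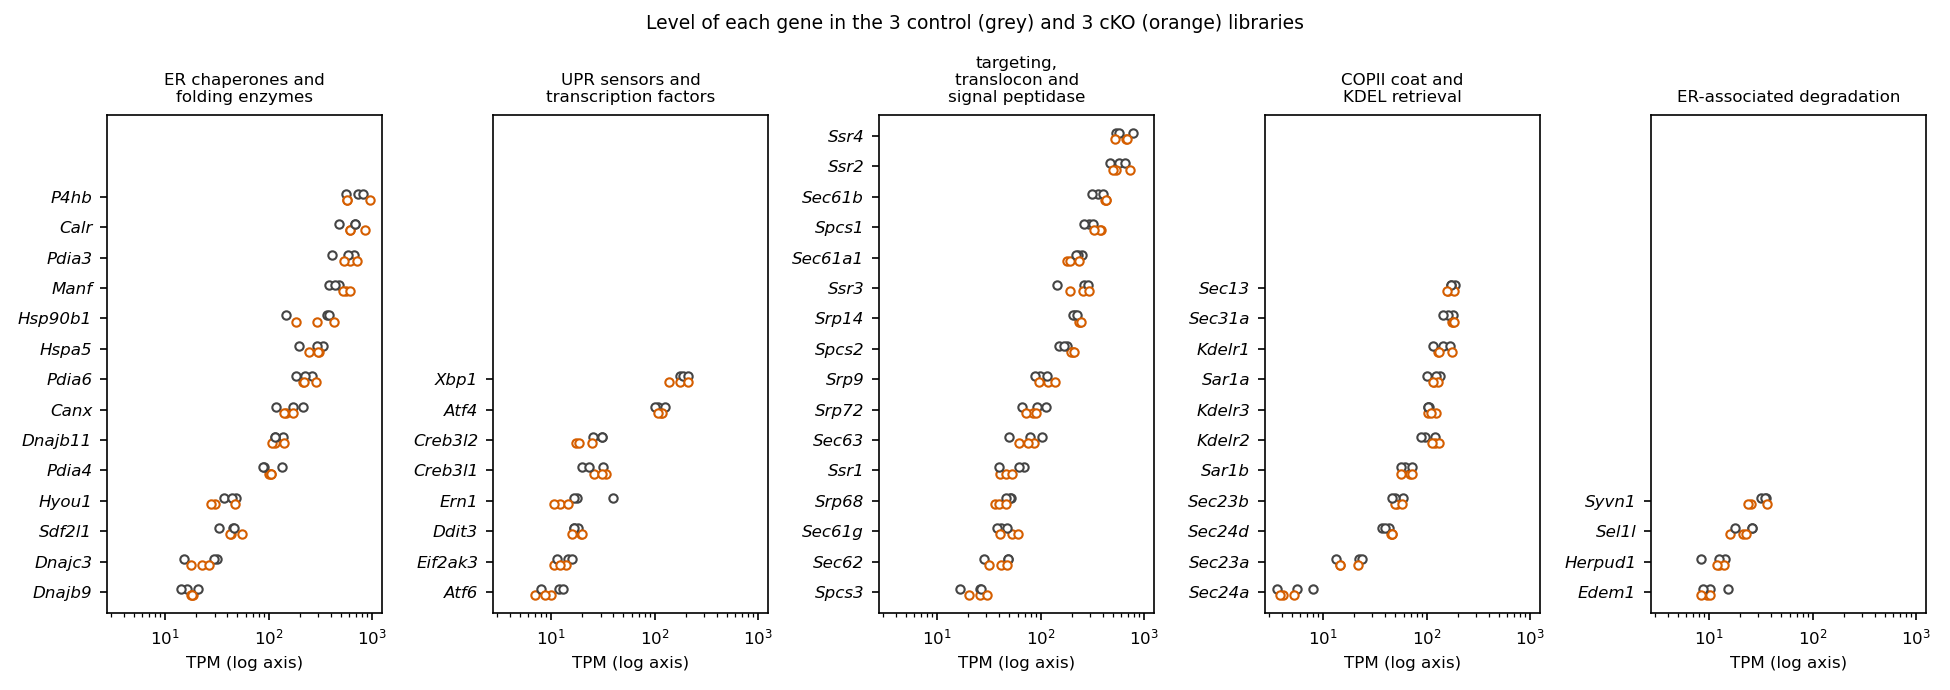
Level of the 53 genes in TPM on a log axis, by role, with 1 circle per library (grey, 3 control libraries; orange, 3 cKO libraries). Control means run from 5.73 TPM (*Sec24a*) to 702 TPM (*P4hb*), and most genes have overlapping groups.

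A gene was called when its unadjusted p from limma on log2(TPM + 1) was below 0.05 and its group means differed by more than 20% of the control mean. By this rule 3 of the 53 genes were called, against 4.02% of all genes tested. Of these, *Manf* was higher in the cKO (1.55% of all genes tested were called higher), and *Ern1* and *Creb3l2* were lower (2.47% of all genes tested). None of the 53 genes had a Benjamini-Hochberg adjusted p below 0.05 (limma, all adjusted p = 1.0), which 0.0146% of all genes tested had, and these 3 were also the only genes of the list with an unadjusted p below 0.05. The same contrast on the TPM without the moderated variance of limma gave none after adjustment either, and called 4 genes, *Creb3l2*, *Manf*, *Spcs1* and *Spcs2*. The number called by limma was 1 without control replicate 2 (*Spcs1*), 0 without cKO replicate 1 and 1 without cKO replicate 2 (*Manf*), and it was 1 (*Ern1*) under quantile normalization or median-ratio scaling. The groups did not overlap for 9 genes, with the cKO higher in 6 (*Manf*, *Srp14*, *Sec61b*, *Spcs1*, *Spcs2* and *Sec24d*; 3.51% of all genes tested) and lower in 3 (*Ern1*, *Creb3l2* and *Srp68*; 6.13% of all genes tested).

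Of the 53 genes, 23 had a lower and 30 a higher log2 value in the cKO, so 43.4% were lower against 60.3% of all genes tested. Corrected for GC content and transcript length, 17 were lower, against 49.8% of all genes tested. The median log2 fold change of the 53 genes (cKO minus control, not corrected) was 0.03, with quartiles at -0.15 and 0.16, where all genes tested had a median of -0.07. The typical size of a change, as the median of the absolute log2 fold change, was 0.16 in the list and 0.18 in all genes tested. The 95% confidence intervals were 0.93 log2 units wide at the median, and 51 of the 53 lay within a 1 log2 unit change in either direction. Changes within these intervals could not be resolved with 3 libraries a group.

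**Figure D2:**
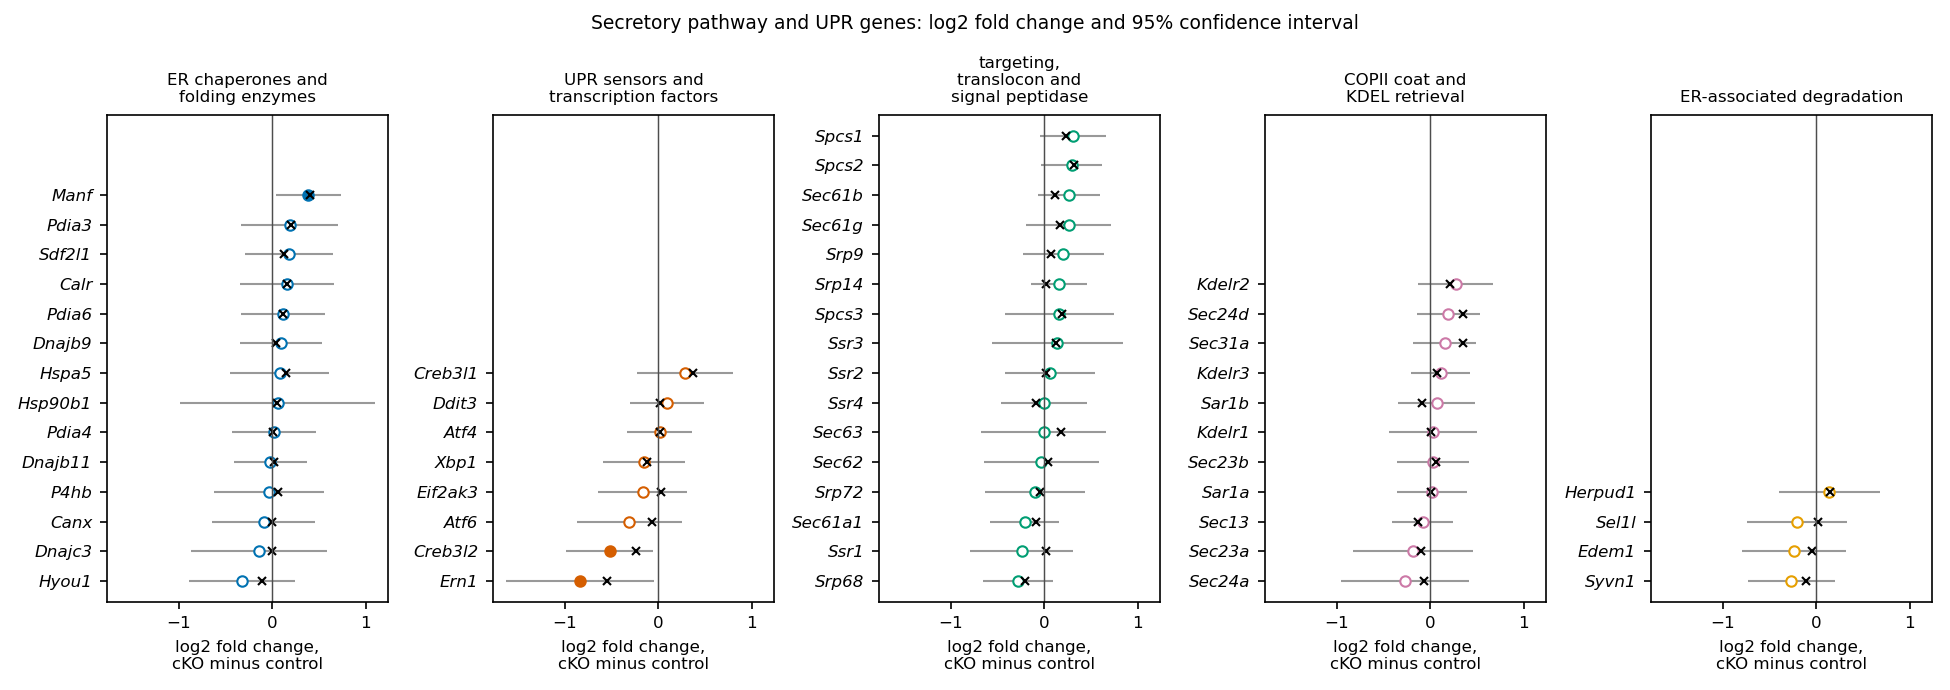
Log2 fold change of each gene (cKO minus control, on log2(TPM + 1)) with its 95% confidence interval, by role; filled circles are the 3 called genes, and crosses are the values corrected for GC content and transcript length. *Manf* (0.38), *Creb3l2* (-0.52) and *Ern1* (-0.84) have intervals that leave out 0, and the crosses of *Creb3l2* (-0.24) and *Ern1* (-0.55) lie nearer to 0.

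Among the chaperones and folding enzymes, 1 of 14 genes was called, against 4.02% of all genes tested. *Manf* (chr9:106838312-106891979, minus strand, GRCm38, 4 exons) encodes a small secreted protein that binds BiP and is a known UPR target. It had 480, 387 and 437 TPM in controls and 558, 524 and 615 TPM in the cKO, or 435 ± 46.6 TPM against 566 ± 45.7 TPM (SD, n = 3 each). Every cKO library was above every control library. The log2 fold change was 0.38 (standard error 0.15, 95% confidence interval 0.04 to 0.73, unadjusted limma p = 0.0348), and a two-sided exact permutation test gave p = 0.1, the smallest value that 3 against 3 libraries allow. Corrected for GC content and transcript length, it was 0.40 and still called. *Manf* was not called when control replicate 2 (0.30), control replicate 3 (0.39), cKO replicate 1 (0.39) or cKO replicate 3 (0.32) was left out, nor under quantile normalization (0.24), median-ratio scaling (0.45) or when scaled to protein-coding TPM less *Amelx* and *Ambn* (0.33). Its annotated span holds *Rbm15b* on the same strand, at a mean of 13.5 TPM.

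The other chaperones gave overlapping groups. *Hspa5*, which encodes BiP, the main ER chaperone and the repressor of the UPR sensors, had 336, 293 and 195 TPM in controls and 306, 303 and 244 TPM in the cKO. Both replicates numbered 3 were low and the groups overlapped, with a log2 fold change of 0.08 (95% confidence interval -0.45 to 0.61). *P4hb*, a protein disulfide isomerase and the highest of the chaperones, had 729, 564 and 814 TPM in controls and 577, 568 and 953 TPM in the cKO. Here the 2 replicates numbered 3 were high, and the log2 fold change was -0.03 (-0.62 to 0.55).

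*Hsp90b1*, the ER form of HSP90 with 2 ERSEs, was the least precise gene of the list. Its levels were 368, 381 and 146 TPM in controls and 295, 431 and 183 TPM in the cKO, and the log2 fold change of 0.06 had an interval of -0.98 to 1.10. The lectin chaperones differed in level, with calreticulin (*Calr*) above calnexin (*Canx*) in all 6 libraries by 3.96 ± 1.66 times in the control and 4.59 ± 1.30 times in the cKO (SD, n = 3). Neither was called (*Calr* 0.16, *Canx* -0.09 log2 units).

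The disulfide isomerases kept an order of level in which *Pdia3* exceeded *Pdia6* in 6 of 6 libraries and *Pdia6* exceeded *Pdia4* in 6 of 6 libraries. *P4hb* exceeded *Pdia3* in only 3 of 6 libraries, so these 2 were not separable. Their log2 fold changes were 0.19 for *Pdia3*, 0.12 for *Pdia6* and 0.02 for *Pdia4*. *Hyou1*, a large nucleotide exchange factor for BiP, had the lowest value of the chaperones at -0.32 (-0.89 to 0.24). The co-chaperones *Dnajb9*, *Dnajb11* and *Dnajc3* and the ER protein *Sdf2l1* ran from -0.14 to 0.18, with 9 of the 14 chaperone genes higher, a median of 0.07 and a summed level of 3315 to 4151 TPM in controls and 3647 to 4135 TPM in the cKO.

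Among the UPR sensors and transcription factors, 2 of 8 genes were called and both were lower in the cKO, where 2.47% of all genes tested were called lower. *Ern1* (chr11:106394650-106487852, minus strand, 22 exons), which encodes IRE1, had 17.9, 40.0 and 16.8 TPM in controls and 12.3, 10.7 and 14.6 TPM in the cKO. The groups did not overlap, but control replicate 2 stood far above the other 5 libraries. The means were 24.9 ± 13.1 TPM and 12.5 ± 1.95 TPM (SD, n = 3), and the log2 fold change was -0.84 (standard error 0.34, unadjusted limma p = 0.0412; exact permutation p = 0.1). Without control replicate 2 it was -0.45 (95% confidence interval -0.96 to 0.06) and no longer called. It was also not called without cKO replicate 1 (-0.83), cKO replicate 2 (-0.74) or cKO replicate 3 (-0.94), nor with no filter on low values (-0.84), by the contrast without moderated variance, or once corrected for GC content and length (-0.55).

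*Creb3l2* (chr6:37327255-37442146, minus strand, 12 exons) encodes an ER-bound transcription factor that promotes secretory capacity, with *Sec23a* among its known targets. It had 31.0, 31.1 and 25.4 TPM in controls and 17.2, 18.6 and 24.7 TPM in the cKO. The groups were just separated, by control replicate 3 and cKO replicate 3, with means of 29.2 ± 3.25 TPM and 20.2 ± 3.96 TPM (SD, n = 3). The log2 fold change was -0.52 (standard error 0.20, unadjusted limma p = 0.031; exact permutation p = 0.1) and the corrected value, -0.24, was not called. Leaving out 1 library at a time gave values of -0.67 to -0.42, called in 2 of those 6 fits, without control replicate 3 and without cKO replicate 3. It was -0.45 and not called under quantile normalization or median-ratio scaling.

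**Figure D3:**
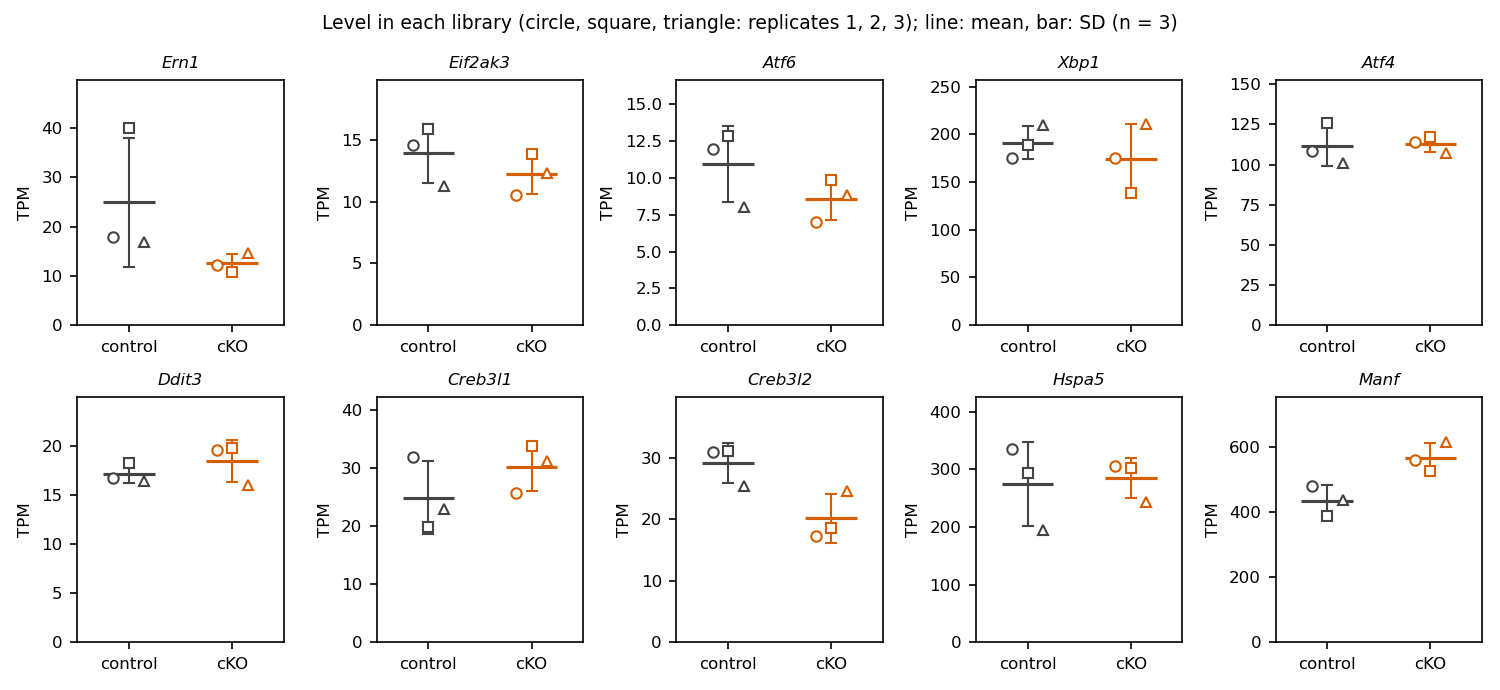
Level in TPM (axes from 0) of the 8 UPR sensors and transcription factors, *Hspa5* and *Manf* in each library; circles, squares and triangles are replicates 1, 2 and 3, lines are means and bars the SD (n = 3). Control replicate 2 of *Ern1* (40.0 TPM) stands above the other 5 libraries, and *Manf* is separated between the groups.

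The other sensors were not called. *Eif2ak3*, the PERK gene, had 14.5, 15.9 and 11.3 TPM in controls and 10.6, 13.8 and 12.3 TPM in the cKO, a log2 fold change of -0.16 (-0.64 to 0.31). *Atf6* had 12.0, 12.9 and 8.03 TPM in controls and 7.02, 9.87 and 8.82 TPM in the cKO, or -0.31 (-0.87 to 0.25). The groups overlapped in both genes. *Ern1* was above *Atf6* in 6 of 6 libraries and above *Eif2ak3* in 5 of 6, the exception being cKO replicate 2.

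The transcription factors downstream of the sensors were also not called. *Xbp1*, the target of IRE1, was the highest of the 8 genes, with 175, 189 and 210 TPM in controls and 175, 139 and 211 TPM in the cKO. The groups overlapped, with a log2 fold change of -0.15 (-0.59 to 0.29). *Atf4*, the transcription factor translated when PERK is active, had 108, 126 and 101 TPM in controls and 114, 117 and 107 TPM in the cKO, and its log2 fold change of 0.02 had an interval of -0.33 to 0.36. *Ddit3*, which encodes the stress factor CHOP, had 16.8, 18.3 and 16.5 TPM in controls and 19.6, 19.8 and 16.0 TPM in the cKO, or 0.09 (-0.30 to 0.49). *Ddit3* overlaps *Mars* on the opposite strand, at a mean of 22.9 TPM, and whether reads were assigned by strand is not given in the sources used here. The same holds for *Kdelr3* with *Ddx17* (mean 91.3 TPM), *Spcs1* with *Glt8d1* (37.1 TPM), *Sec61a1* with *Gm44170* (24.9 TPM) and *Syvn1* with *Mrpl49* (17.2 TPM).

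*Creb3l1*, a paralog of *Creb3l2* known for its role in bone matrix secretion, had 31.9, 19.9 and 23.0 TPM in controls and 25.7, 33.8 and 31.2 TPM in the cKO. Its groups overlapped and its log2 fold change was 0.29 (-0.23 to 0.80). The 8 genes together summed to 407, 453 and 412 TPM in controls and 381, 363 and 425 TPM in the cKO, with 5 lower, 3 higher and a median of -0.16. Corrected for GC content and length, their median was -0.03 and 4 of the 8 were lower.

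The genes of targeting, translocation and signal peptide removal held 4 of the 6 genes of the list whose cKO libraries were all above the control libraries (4 of 16, against 3.51% of all genes tested), although none of the 16 was called. They were *Srp14*, *Sec61b* and 2 subunits of the signal peptidase complex, which cuts the signal peptide, *Spcs1* and *Spcs2*. *Spcs1* had 292, 320 and 264 TPM in controls and 385, 378 and 325 TPM in the cKO, a log2 fold change of 0.31 (-0.04 to 0.66). *Spcs2* had 180, 149 and 169 TPM in controls and 203, 197 and 211 TPM in the cKO, or 0.30 (-0.03 to 0.62). After correction *Spcs1* and *Spcs2* were at 0.23 and 0.32, and *Srp14* and *Sec61b* at 0.02 and 0.12. The share of 3.51% covers genes of every length. *Srp14* (798 bases), *Sec61b* (564 bases) and *Spcs1* (1008 bases) have transcripts under 1500 bases, and 23.6% of protein-coding genes of that length were lower. *Spcs3* was lower in level than *Spcs2* in all 6 libraries and had overlapping groups, at 0.16.

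The log2 fold changes of the Sec61 channel subunits took both signs, and none was called. *Sec61b* had 357, 314 and 403 TPM in controls and 432, 424 and 429 TPM in the cKO, so the groups were separated at a log2 fold change of 0.26 (-0.07 to 0.60). *Sec61a1*, which forms the pore, had 252, 228 and 222 TPM in controls and 179, 193 and 236 TPM in the cKO, with overlapping groups and a log2 fold change of -0.21 (-0.58 to 0.16). *Sec61b* was above *Sec61a1*, and *Sec61a1* above *Sec61g*, in 6 of 6 libraries. The ratio of *Sec61b* to *Sec61a1* was 1.54 ± 0.245 in the control and 2.14 ± 0.297 in the cKO (SD, n = 3; two-sided exact permutation p = 0.2). *Sec61b* is encoded by a transcript of 564 bases and *Sec61a1* by one of 3172 bases, and corrected for length and GC content the log2 fold changes were 0.12 and -0.09. The Sec61 partners *Sec62* and *Sec63*, used by proteins that enter the ER after translation, were at -0.03 and -0.00.

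None of the 4 subunits of the signal recognition particle in the list was called. *Srp14* had 216, 205 and 227 TPM in controls and 242, 235 and 247 TPM in the cKO, with separated groups at 0.16 (-0.14 to 0.46; 0.02 corrected for length and GC content). *Srp9*, which forms a dimer with it, was at 0.20 (0.07 corrected) with overlapping groups. *Srp68* had 52.0, 50.5 and 46.5 TPM in controls and 36.6, 40.0 and 45.9 TPM in the cKO, with groups separated downward at -0.28 (-0.65 to 0.09; -0.21 corrected). *Srp72*, its partner, was at -0.10 (-0.04 corrected) with overlapping groups. *Srp14* exceeded *Srp9*, *Srp9* exceeded *Srp72*, and *Srp72* exceeded *Srp68* in each of the 6 libraries.

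The translocon-associated (TRAP) complex, which helps some proteins through the channel, contributed the highest gene of this role. *Ssr4* had 533, 578 and 775 TPM in controls and 667, 521 and 687 TPM in the cKO, with overlapping groups and a log2 fold change of -0.00 (-0.46 to 0.46). *Ssr2* was close in level, above *Ssr4* in 2 of the 6 libraries, while *Ssr3* was below *Ssr2* and *Ssr1* below *Ssr3* in all 6. Their log2 fold changes were 0.06 (*Ssr2*), 0.14 (*Ssr3*) and -0.24 (*Ssr1*), the last from a transcript of 9333 bases and 0.02 after correction. The 16 genes summed to 3118 to 3231 TPM in controls and 3276 to 3485 TPM in the cKO, ranges that did not overlap. The mean was at 107% of the control and the median log2 fold change was 0.10, or 0.06 after correction. These sums are parts of a library total that also holds *Amelx*, which took 8.65% of all TPM in cKO replicate 2. The part of that scaling in the separation was not tested.

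No gene of the COPII coat and KDEL retrieval was called among 11. *Sec13*, a component of the outer coat and the highest of the role by control mean, had 189, 172 and 171 TPM in controls and 160, 183 and 159 TPM in the cKO, with overlapping groups at -0.08 (-0.41 to 0.24). Its outer-coat partner *Sec31a* had 182, 162 and 144 TPM in controls and 176, 181 and 184 TPM in the cKO, or 0.16 (-0.18 to 0.49), and was the highest of the role by cKO mean. *Sec31a* was not called as deposited but was once corrected for GC content and length (0.35), where 2 of the 53 genes, *Sec31a* and *Manf*, were called against 4.63% of the genes tested.

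The inner coat selects cargo, and its paralogs were used at different levels. *Sec24d*, whose promoter holds a UPRE, had 43.7, 37.0 and 39.9 TPM in controls and 46.5, 45.7 and 46.0 TPM in the cKO. The groups were separated, at a log2 fold change of 0.19 (-0.14 to 0.53; 0.35 corrected). *Sec24d* exceeded *Sec24a* in 6 of 6 libraries, by 7.83 ± 3.20 times in the control and 10.6 ± 1.73 times in the cKO (SD, n = 3). Outside the list, *Sec24c* averaged 47.6 TPM in controls and 38.1 TPM in the cKO, near *Sec24d* at 40.2 and 46.1 TPM. *Sec24b* averaged 22.9 and 19.2 TPM. *Sec23b* exceeded *Sec23a* in 6 of 6 libraries by 2.78 ± 0.692 and 3.26 ± 0.853 times, and *Sar1a*, a GTPase that starts coat assembly, exceeded *Sar1b* in 6 of 6 by 1.91 ± 0.250 and 1.83 ± 0.188 times. The log2 fold changes of *Sec24a* (-0.27), *Sec23a* (-0.18), *Sec23b* (0.03), *Sar1a* (0.02) and *Sar1b* (0.07) all had intervals that held 0.

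The KDEL receptors return chaperones that escape from the ER. *Kdelr2* had 122, 96.5 and 87.9 TPM in controls and 120, 133 and 114 TPM in the cKO, with overlapping groups at 0.27 (-0.13 to 0.67). The log2 fold changes of *Kdelr1* and *Kdelr3* were 0.03 and 0.11. *Kdelr1* exceeded *Kdelr3* in 6 of 6 libraries and *Kdelr2* in 5 of 6, the exception being cKO replicate 2. *Kdelr2* exceeded *Kdelr3* in 4 of 6 libraries. The 11 genes of the role summed to 934 to 1071 TPM in controls and 995 to 1075 TPM in the cKO.

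The 4 genes of ER-associated degradation, by which misfolded proteins are sent to the proteasome, had the lowest median, -0.22, with 3 lower and none called. *Syvn1*, the ubiquitin ligase HRD1 and the highest of them, had 35.8, 32.1 and 34.4 TPM in controls and 25.4, 24.0 and 36.5 TPM in the cKO, with overlapping groups at -0.27 (-0.73 to 0.20). Its partner *Sel1l* was at -0.20, the mannosidase-like *Edem1* at -0.24, and *Herpud1*, with an ERSE-II, at 0.14. Corrected for GC content and length, the 4 ran from -0.11 to 0.15 with a median of -0.01. Their summed level was 69.2 to 86.3 TPM in controls and 63.3 to 79.3 TPM in the cKO.

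The 9 genes with an ERSE or ERSE-II had log2 fold changes from -0.27 to 0.16, with a median of 0.06, 4 lower and none called. The 35 other genes with a promoter ran from -0.84 to 0.31 with a median of 0.02, and 2 of them, *Ern1* and *Creb3l2*, were called. *Manf*, the gene called higher, is in neither group, since its promoter was not searched. After correction the medians were 0.05 and 0.02. The UPRE genes *Sec24d* (0.19), *Kdelr3* (0.11) and *Sec23a* (-0.18) took both signs.

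A further 133 genes of the same pathways were listed beside the 53. Of the 129 that passed the filter, 2 were called (against 4.02% of all genes tested), 68 were lower and the median log2 fold change was -0.02. *Cnpy2*, an ER protein, had 154, 140 and 151 TPM in controls and 202, 194 and 170 TPM in the cKO, with separated groups at 0.34 (0.30 and still called when corrected). *Stt3a*, a catalytic subunit of oligosaccharyltransferase, which attaches N-linked sugars, had 196, 161 and 121 TPM in controls and 74.7, 78.4 and 129 TPM in the cKO, with overlapping groups at -0.77 (-0.60 and not called when corrected). Called genes numbered 1 of 35 folding enzymes, 1 of 22 genes of targeting, translocation and glycosylation, 0 of 37 of vesicle coats, cargo receptors and SNAREs, 0 of 19 of ER-associated degradation and 0 of 16 of the UPR and integrated stress response, with medians between -0.06 and 0.04. Both calls were lost without control replicate 2, without cKO replicate 1 or without cKO replicate 2, where none of the 129 genes was called (2.69%, 1.49% and 2.06% of all genes tested), while 10 were called without control replicate 3 (8.45% of all genes) and 6 without cKO replicate 3 (6.93% of all genes).

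The fold changes of the secretory genes moved with transcript length, as did those of other genes. Of the 21 genes with a transcript of 3000 bases or more, 17 were lower, with a median of -0.18, where 79.3% of 6446 protein-coding genes of that length were lower with a median of -0.18. Of the 11 genes under 1500 bases, 2 were lower, with a median of 0.11, where 23.6% of 1757 protein-coding genes were lower with a median of 0.15. Spearman's rho of log2 fold change on length was -0.61 over the 53 genes and -0.51 over 12153 protein-coding genes, which share the 6 libraries and are not independent. By library, rho between length and the deviation from the mean of the 6 libraries differed within the controls. For the 53 genes it was 0.64, 0.62 and -0.34 in controls and -0.47, -0.16 and -0.33 in the cKO. For protein-coding genes it was 0.37, 0.52 and -0.25 in controls and -0.35, -0.09 and -0.26 in the cKO. *Ern1* (6946 bases) and *Creb3l2* (7082 bases) were both long, and *Manf* was 2247 bases. The part of this relation in their calls was not tested beyond the corrected values given above.

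**Figure D4:**
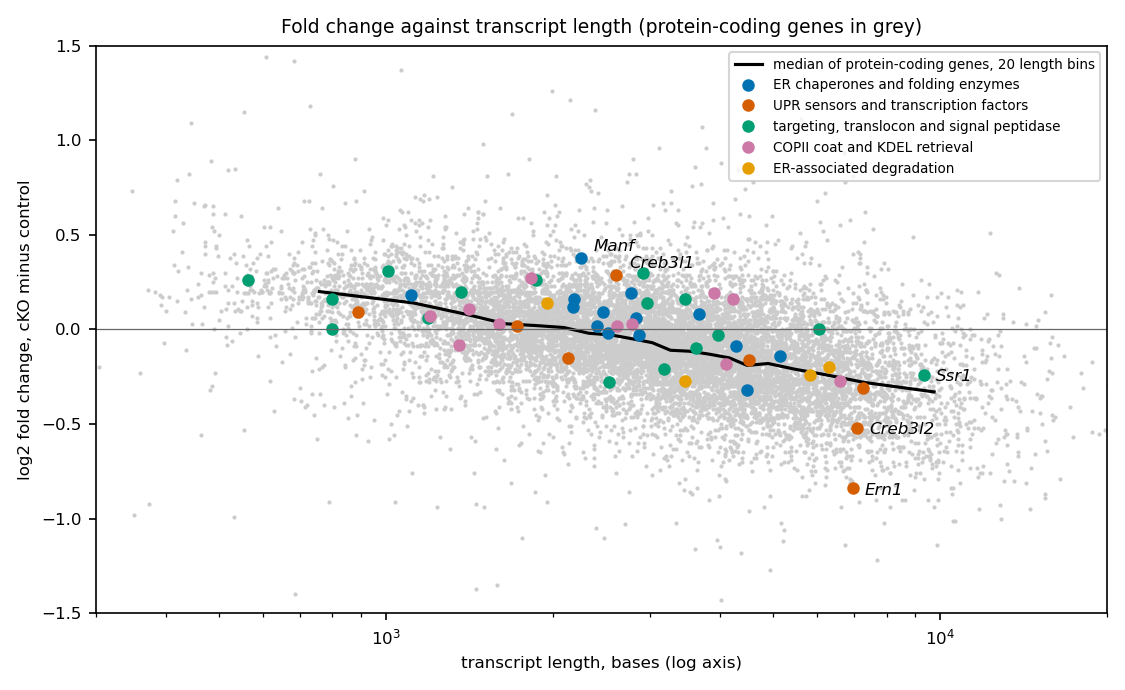
Log2 fold change (cKO minus control) against transcript length in bases on a log axis, with protein-coding genes in grey, the median over 20 length bins as a line and the 53 genes coloured by role; 31 protein-coding genes lie outside the axes. The line falls with length, most secretory genes of 3000 bases or more lie below 0 (17 of 21), and *Ern1* lies below the line.

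The libraries numbered 3 stood apart within both groups. They were the 2 lowest of the 6 libraries for 19 of the 53 genes (32.3% of all genes tested) and the 2 highest for 7 (7.81% of all genes tested). The 19, among them *Hspa5*, *Hsp90b1*, *Canx*, *Pdia3* and *Sec63*, had a median GC content of 44.6% (range 40.2% to 55.4%). The 7, which were *Calr*, *P4hb*, *Sdf2l1*, *Xbp1*, *Ssr2*, *Ssr4* and *Kdelr1*, had a median of 53.8% (range 50.0% to 56.7%). Spearman's rho between GC content and the deviation from the mean of the 6 libraries was 0.75 in control replicate 3 and 0.69 in cKO replicate 3, and between -0.56 and -0.22 in the other 4 libraries. Without both of these libraries 4 of the 53 genes were called, all lower (*Creb3l2*, *Ern1*, *Hyou1* and *Ssr1*), and *Manf* was at 0.33 (95% confidence interval -0.11 to 0.76). In that fit 8.89% of all genes were called.

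**Figure D5:**
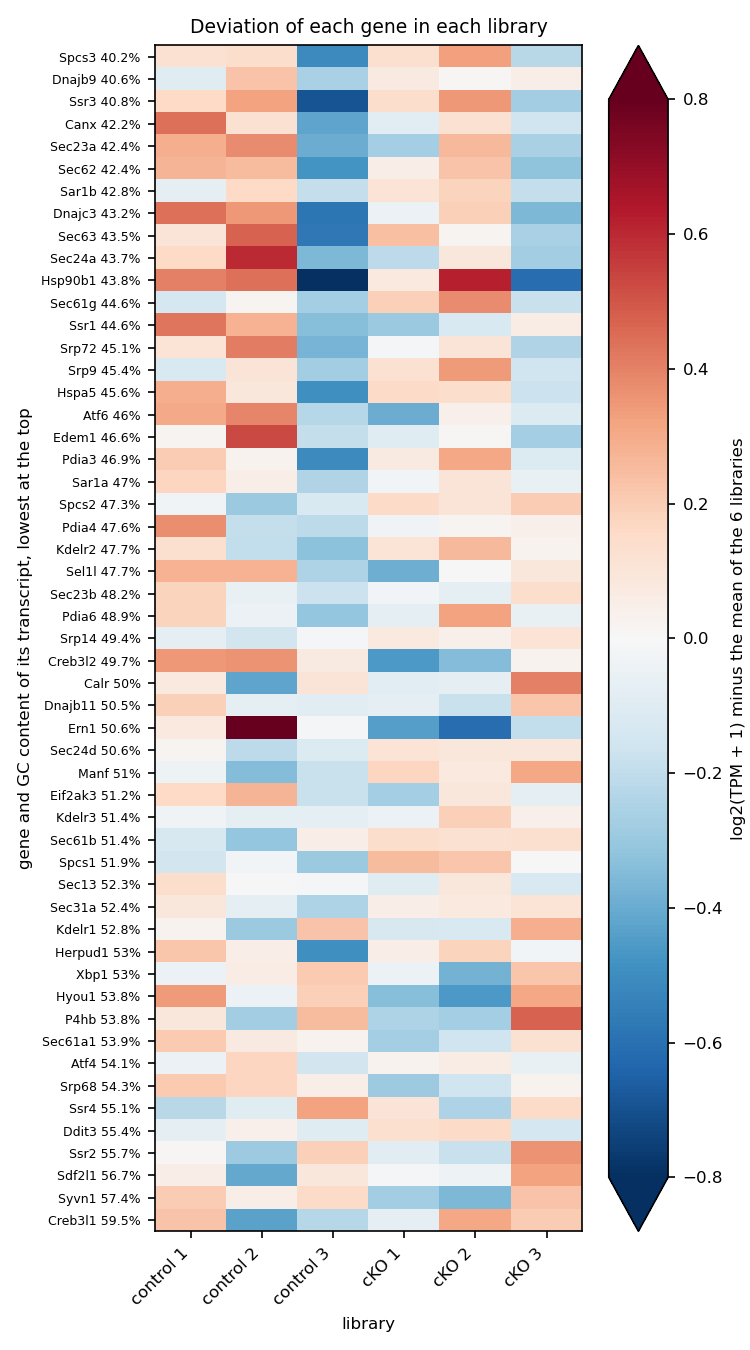
Deviation of log2(TPM + 1) from the mean of the 6 libraries for the 53 genes (rows, ordered by the GC content of the transcript, lowest at the top) in each library (columns); red is higher, blue is lower, and colours saturate at 0.8. The columns of control replicate 3 and cKO replicate 3 are mostly blue at low GC content and mostly red at high GC content. Exceptions in control replicate 3 include *Creb3l1* (59.5% GC, -0.23) and *Herpud1* (53.0% GC, -0.49).

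In bulk tissue, fewer cells of a type and less RNA per cell cannot be told apart. Of 6 dental epithelium genes none was called and 5 were lower in the cKO (against 60.3% of all genes tested), the exception being *Epcam* (131% of the control mean). They summed to 4985 to 7018 TPM in controls and 4613 to 6582 TPM in the cKO, mostly from the epithelial keratin genes *Krt14* and *Krt5*. *Amelx*, the amelogenin gene, took 16.5% to 20.6% of all TPM in controls and 8.65% to 18.1% in the cKO. All 7 ameloblast genes were lower in the cKO (against the same 60.3%) with none called, and they summed to 200200 to 239300 TPM in controls and 96150 to 208600 TPM in the cKO. Of the 7, only *Ambn* had separated groups, where 6.13% of all genes tested were separated downward. *Ambn* had 31405, 32180 and 33061 TPM in controls and 24646, 8562 and 26263 TPM in the cKO. cKO replicate 2 had the least *Amelx*, 85454 TPM, and its 53 secretory genes summed to 8728 TPM, within the range of the other libraries. As TPM, the level of *Amelx* was low in that library and the summed level of the secretory genes was not. The TPM of a library add to a nearly fixed total, so less *Amelx* raises the values of all other genes. The part of this scaling in the secretory sum of that library was not tested.

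RNA of other cells was also present, and the calls in each list stand against 4.02% of all genes tested, or 4.63% after correction for length and GC content. Odontoblast and bone genes summed to 3692 to 7217 TPM in controls and 5242 to 5482 TPM in the cKO, with 1 of 7 called, *Bglap*, which was higher (0.82; also called when corrected). Fibroblast genes (0 of 7 called) summed to 189 to 510 TPM in controls and 221 to 528 TPM in the cKO. Endothelial genes (2 of 5 called, *Cdh5* and *Tek*, both lower; 0 of 5 when corrected) summed to 60.2 to 95.5 TPM in controls and 47.7 to 67.3 TPM in the cKO. Erythroid genes (1 of 5 called, *Hbb-bs*, lower; 4 of 5 when corrected, with *Hba-a1*, *Hba-a2* and *Hbb-bt*, all lower) summed to 1325 to 1978 TPM in controls and 1160 to 1282 TPM in the cKO. Macrophage genes (0 of 4 called) summed to 45.2 to 62.1 TPM in controls and 41.8 to 46.4 TPM in the cKO, with *Ptprc* at 0.50 TPM or less. Of 5 muscle genes only *Mylpf* passed the filter, at 3.25 to 5.55 TPM and not called, while *Tnnt3* reached 0.85 TPM, *Ckm* 0.70 TPM and *Myh3* 0.02 TPM. Cells of all these types have a secretory pathway, and the part of each list in the secretory values was not tested.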

How the data were processed

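RNA-seq libraries of mandibular first molar dental epithelium (3 control, 3 cKO) were aligned with HISAT2 by the authors, with StringTie also named in the submitters' processing notes and RSEM in the methods. The deposited values were taken as TPM because each library summed to 983952 to 993946, although the methods name FPKM. No counts were used, so depth per library is unknown and no counting interval is given. No version, strand setting or annotation release is given in the sources used here. Fold changes were fitted with limma 3.58.1 (R 4.3.3; empirical Bayes with trend) on log2(TPM + 1), which understates the change of low genes, over the 13719 genes averaging 1 TPM or more, and p-values were adjusted by Benjamini-Hochberg over all of them. A call followed the criteria of the study's methods (unadjusted p below 0.05 and a difference over 20%). The alternative test was the same contrast on TPM without moderated variance. The p-values set the difference of the groups against the spread between libraries, each a pool of molars.

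Gene types, positions, lengths and GC content came from GENCODE M21 (GRCm38), which held 99.5% of the identifiers. The correction removed natural splines (4 degrees of freedom each) of length and GC content from each library, using the longest protein-coding transcript. The longest transcript of any type had been used first and was replaced after its results were seen, and both are reported. Values in every library were given by rule for called genes, the 8 sensors and transcription factors, *Hspa5* and the highest gene of each role; other genes were named after their values were seen. Members and lists were chosen with earlier results of these data known. Of the 53 genes, 10 overlap an annotated gene averaging 1 TPM or more, and *Calr-ps* and *Spcs2-ps* reached at most 0.43 TPM.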

Additional observations from a re-analysis of the deposited data

How the results depend on the processing

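All 53 genes had an adjusted p above 0.05 in all 18 fits, with a lowest adjusted p between 0.507 and 1.0. Of the 53 genes, 3 were called in the reported fit (4.02% of all genes), 1 under quantile normalization (*Ern1*; 4.73% of all genes), 1 under median-ratio scaling (*Ern1*; 4.72%), 4 with the replicate block and length and GC correction (*Manf*, *Sec24d*, *Sec31a*, *Spcs2*; 7.83%), and 0 to 4 when 1 library was left out, 0 of them without cKO replicate 1 (1.49%) and 4 without control replicate 3 (8.45%) or cKO replicate 3 (6.93%). Of the other pathway genes, 2 were called in the reported fit, 5 when rescaled to protein-coding TPM less *Amelx* and *Ambn*, 4 under the replicate block, 6 under both the block and the length and GC correction, 1 with the correction on the longest transcript of any type, and 0 to 12 with libraries left out, the highest without both replicates numbered 3. The fit without both replicates was added after seeing the data. The planned correction named no transcript. It first used the longest of any type (which also called *Srp9*), and the protein-coding one was chosen after seeing the data. The number of lower genes stayed between 17 and 34 and the median log2 fold change between -0.067 and 0.095. The median was negative under quantile normalization, after rescaling, and without control replicate 3 or both replicates numbered 3. *Wnt10a* stayed lower throughout.

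The study's methods describe 3 pairs of biological replicates and do not say what joins a pair. The reported fit and the permutation tests did not use pairs. Same-numbered libraries did not deviate together in every case (correlations -0.08, 0.29 and 0.40 over all genes, and -0.17, 0.54 and 0.70 over the 53). These correlations do not settle whether the libraries were collected as pairs. With the replicate block, the same 3 of the 53 genes were called, while the calls over all genes went from 552 to 1315 (9.59%). With 3 libraries a group and unknown depth, small changes and low genes such as *Sec24a* could not be resolved, and the cause of the lost calls was not tested.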

Other observations

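*Creb3l1* and *Creb3l2* encode related ER-bound transcription factors, and they were compared within a library after their values were seen. The ratio of *Creb3l2* to *Creb3l1* was 0.970, 1.56 and 1.11 in controls and 0.670, 0.550 and 0.791 in cKO libraries. No cKO ratio reached the lowest control ratio. The pair was chosen for these values, so this is a description with no test. A ratio within a library does not depend on the scaling of that library. On the log2 scale the difference of *Creb3l2* and *Creb3l1* was 0.24 ± 0.34 in the control and -0.57 ± 0.25 in the cKO (SD, n = 3). After correction for length and GC content it was 0.14 ± 0.33 and -0.47 ± 0.36, where the groups overlapped.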
